A study of Mus musculus with 72 samples.

Results

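The 10 genes described here are 8 cytosolic heat shock genes and 2 cold-induced genes. The heat shock genes are the HSP70 chaperones Hspa1a, Hspa1b and Hspa8, the HSP110 protein Hsph1, the HSP90 chaperones Hsp90aa1 and Hsp90ab1, and the co-chaperones Dnajb1 and Bag3. The cold-induced genes are Cirbp and Rbm3. They were chosen by symbol from 46078 gene identifiers in the count tables, and each symbol matched 1 identifier. All 10 were among the 18538 genes that passed the filter on low counts, with single-library counts from 316 for Bag3 up to 222853 for Hsp90ab1.

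HSP70 proteins hold and refold unfolded proteins in cycles driven by ATP. DNAJ proteins such as DNAJB1 bring them clients, and HSPH1 and BAG3 release their nucleotide. HSP90 takes over partly folded clients, many of them signalling proteins. The transcription factor HSF1 binds repeats of the heat shock element and raises most of these genes when cells are warmed. Cirbp and Rbm3 encode small RNA-binding proteins that rise under mild cooling. In mammals the daily swing of body temperature can drive both groups in opposite directions, and so they serve as readouts of that rhythm in peripheral tissues.

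The tissue was interfollicular epidermis of C57BL/6 female mice aged 8 weeks, moved from a light and dark cycle into constant darkness at 7 weeks and killed after 156 to 176 h without light. RE mice carried the Bmal1-stopFL allele, in which a floxed stop cassette blocks the clock gene Bmal1 (Arntl), together with K14-Cre, which removes the cassette in keratin 14 expressing epithelium. KO mice carried Bmal1-stopFL alone. WT mice carried K14-Cre, so that Cre was present in RE and WT but not in KO. Each genotype was sampled at 6 time points with 4 animals each, 72 libraries in all, and the labels describe them as separate animals. Even steps of 4 h between time points were assumed, and hours are counted from time point 1. The epidermis was floated on dispase for about 40 min at 37 °C before the cells were filtered and frozen, a step that all groups shared.

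Total counts ran from 24.5 to 95 M per library with a median of 35.4 M, so counting error was small beside the spread between animals. Arntl lay between 47.1 and 76.1 CPM (read counts scaled to the library total with TMM factors) in RE, 26.1 and 35.1 CPM in KO and 18.1 and 99.2 CPM in WT, so no KO library overlapped an RE library. The basal keratinocyte markers summed to medians of 21691 CPM in RE, 22532 CPM in KO and 22798 CPM in WT, and the suprabasal ones to 17876, 21744 and 16149 CPM. Fibroblast markers had medians of 12.0, 10.6 and 12.1 CPM in the same order. Replicate 4 of KO at time point 6 stood apart on the first principal component, which held 13.5% of the variance. It had the highest Hspa1a (334 CPM) and the lowest Bag3 (12.5 CPM) of all libraries. The lowest library of each genotype on that component was at time point 6 and had a raised mitochondrial share of counts, 5.94% in RE, 5.47% in KO and 8.36% in WT, against a median of 2.53% over all libraries. Replicate 2 of WT at time point 6, with 5.70%, also stood above the rest. The library of each genotype that lay lowest on that component also held the lowest Bag3 of its genotype. Called rhythms, rhythm differences and mean levels of the heat shock and cold-induced genes are also given without the lowest library of each genotype. So is the count of correlated pairs. Replicate 2 of WT at time point 6 was kept in these fits. The relations with summed gene levels and the Dnajb1 fit by time point were not repeated in this way. In such bulk samples, fewer cells of a type and less RNA per cell cannot be told apart.

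The promoter windows of the genes that the results turn on are shown because HSF1 acts through heat shock elements and the clock through E-boxes. RefSeq windows (GRCm38.p6) of 250 bases before to 50 bases after the start were at hand for 6 of the 10 genes, and Hspa8, Hsp90aa1, Hsp90ab1 and Rbm3 are named only. Capitals mark the 8-letter heat shock motifs GAANNTTC and TTCNNGAA and the E-box CACGTG, searched on both strands. Hsph1 is read from the minus strand at chr5:149636287-149636586, Cirbp from the plus strand at chr10:80167589-80167888, Hspa1a from the minus strand at chr17:34972107-34972406 and Hspa1b from the minus strand at chr17:34959189-34959488.
Hsph1: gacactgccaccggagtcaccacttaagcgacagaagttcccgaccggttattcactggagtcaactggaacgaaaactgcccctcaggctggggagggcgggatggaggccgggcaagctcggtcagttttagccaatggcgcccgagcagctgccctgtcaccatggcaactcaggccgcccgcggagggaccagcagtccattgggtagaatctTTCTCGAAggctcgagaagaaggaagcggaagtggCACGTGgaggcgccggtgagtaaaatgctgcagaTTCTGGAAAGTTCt
Cirbp: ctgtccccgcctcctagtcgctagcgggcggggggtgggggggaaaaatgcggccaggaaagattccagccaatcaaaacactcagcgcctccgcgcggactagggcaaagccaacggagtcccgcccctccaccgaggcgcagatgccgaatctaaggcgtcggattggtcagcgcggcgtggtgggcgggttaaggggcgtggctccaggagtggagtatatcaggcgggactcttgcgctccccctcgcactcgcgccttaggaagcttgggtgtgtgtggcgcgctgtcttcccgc
Hspa1a: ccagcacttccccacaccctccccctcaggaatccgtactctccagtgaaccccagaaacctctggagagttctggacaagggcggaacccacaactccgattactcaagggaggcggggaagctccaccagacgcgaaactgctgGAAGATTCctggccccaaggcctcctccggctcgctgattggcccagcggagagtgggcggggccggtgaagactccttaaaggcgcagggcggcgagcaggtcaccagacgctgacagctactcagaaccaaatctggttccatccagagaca
Hspa1b: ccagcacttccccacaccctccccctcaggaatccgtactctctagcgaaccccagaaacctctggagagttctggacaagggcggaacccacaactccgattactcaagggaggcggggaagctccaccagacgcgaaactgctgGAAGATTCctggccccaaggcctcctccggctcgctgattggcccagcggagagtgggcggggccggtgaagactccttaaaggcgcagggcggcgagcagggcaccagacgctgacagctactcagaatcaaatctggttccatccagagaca

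The Hsph1 window shown held TTCNNGAA at bases -33 and 36, GAANNTTC at 41, overlapping the second of these, and CACGTG at base 2, all counted from the start as base 0. In another Hsph1 window, at chr5:149636266-149636565, the same sites lay at -54, 15 and 20 and CACGTG at -19. Whether CACGTG lies before or after the start thus depends on the window. Hspa1a and Hspa1b shared GAANNTTC at base -104, and their windows differed at 4 of 300 bases. Bag3 held GAANNTTC at base 42. None of these letters stood in the windows of Cirbp and Dnajb1. Over 32851 mouse windows of the same length, 15.1% held either heat shock motif and 7.15% held CACGTG, so a match is a description and not evidence of binding.

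Per length of all annotated exons of a gene merged, Hsp90ab1, the constitutive HSP90, was the highest of the 10 genes. This length was 7266 bases for Hsph1, 4698 for Rbm3, 4301 for Hspa8, 2967 for Hspa1a and 2803 for Hspa1b. It can exceed that of any single transcript, and the order below depends on it. It averaged 686 ± 57.4 CPM per kb (SD over 72 libraries), 59.1% of the summed level of all 10. Dnajb1 followed with 154 ± 50.02, Hspa1b with 120.0 ± 29.8, Hsp90aa1 with 67.4 ± 12.4 and Hspa1a with 56.6 ± 14.8 CPM per kb. Hspa1b and Dnajb1 overlapped widely, as did Hsp90aa1 and Hspa1a. The lower part of the order was Cirbp at 25.5 ± 6.98, Bag3 at 15.0 ± 4.30, Hspa8 at 14.6 ± 1.80, Hsph1 at 12.8 ± 3.42 and Rbm3 at 9.15 ± 1.54 CPM per kb. Bag3, Hspa8 and Hsph1 did not differ beyond their spread. The heat-inducible Hspa1a and Hspa1b thus stood above Hspa8, the constitutive HSP70, in this tissue as counted. The labels do not say how reads mapping to more than 1 place were counted. Hspa8 has many processed pseudogenes and Hspa1a and Hspa1b are near-identical copies, so the split of counts within each is uncertain. The ratio of Hspa1b to Hspa1a CPM stayed between 1.72 and 2.30 in all 72 libraries.

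Hsph1 and Cirbp were the genes of this group with a 24 h rhythm in WT, and they ran in opposite parts of the cycle. A rhythm was called at an adjusted p under 0.05 in edgeR's joint test of a cosine and a sine term. It was called for 0 of 10 genes in RE, against 2.7% of all genes tested, for 1 of 10 in KO, against 5.87%, and for 2 of 10 in WT, against 11%. The median swing (peak-to-trough difference of the fitted curve, log2) of the 10 genes was 0.24 in RE, 0.35 in KO and 0.32 in WT, and that of all genes was 0.22, 0.26 and 0.26. Of the 10 genes in RE, 2 had an unadjusted p under 0.05, DESeq2 called Hspa1a and limma-voom called 0.

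Hsph1, which works as a nucleotide exchange factor for HSP70, had in WT 59.0, 59.1, 62.3 and 76.9 CPM at time point 2 and 65.6, 69.1, 76.4 and 77.3 CPM at time point 3. At time point 6 the WT animals had 81.3, 117, 130.1 and 160 CPM, and at time point 1 they had 89.7, 105, 137 and 146 CPM. Every WT animal at time points 2 and 3 thus lay below every WT animal at time points 1 and 6. At time point 5 the WT animals had 91.3, 95.8, 100.2 and 178 CPM, and at time point 4 they had 66.2, 85.3, 87.7 and 159 CPM, with replicate 1 high at both. The fitted swing was 0.94 ± 0.18 (standard error, 24 animals), with a peak at 18.7 ± 0.74 h and an adjusted p of 0.00103.

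In RE, Hsph1 had 62.1, 80.7, 94.0 and 124 CPM at time point 2 and 72.2, 73.9, 87.3 and 96.6 CPM at time point 6. In KO it had 79.9, 91.0, 94.8 and 111 CPM at time point 2 and 67.4, 80.7, 123 and 124 CPM at time point 6. These time points overlapped in both genotypes, unlike in WT. The swing was 0.22 ± 0.18 in RE (adjusted p = 0.748) and 0.04 ± 0.18 in KO (adjusted p = 0.986). At time point 2 every KO animal lay above every WT animal, while 1 RE animal lay within the WT range. The rhythm differed between RE and WT at an adjusted p of 0.0178. Between KO and WT the adjusted p was 0.0531, so that this difference was not called.

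Cirbp moved the other way. In WT it had 81.6, 86.2, 86.5 and 89.0 CPM at time point 2 and 68.6, 78.6, 93.1 and 98.2 CPM at time point 3. At time point 5 it had 35.97, 51.1, 53.8 and 54.9 CPM, so that all WT animals of time point 5 lay below all of time points 2 and 3. The remaining WT animals, at time points 1, 4 and 6, ran from 42.6 to 77.0 CPM. The swing was 0.78 ± 0.20 with a peak at 5.54 ± 1.00 h (adjusted p = 0.0165), which was 10.9 h from that of Hsph1.

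In RE, Cirbp had 49.2, 56.3, 62.6 and 67.9 CPM at time point 2 and 54.9, 65.5, 68.0 and 90.5 CPM at time point 5. In KO it had 37.8, 59.7, 59.9 and 60.4 CPM at time point 2 and 40.5, 51.2, 57.4 and 65.9 CPM at time point 5. All 8 RE and KO animals at time point 2 lay below the 4 WT animals. The swing was 0.22 ± 0.20 in RE (adjusted p = 0.786) and 0.36 ± 0.20 in KO (adjusted p = 0.444). The rhythm differed between KO and WT (adjusted p = 0.0296), whereas the adjusted p between RE and WT was 0.0980.

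**Figure D1:**
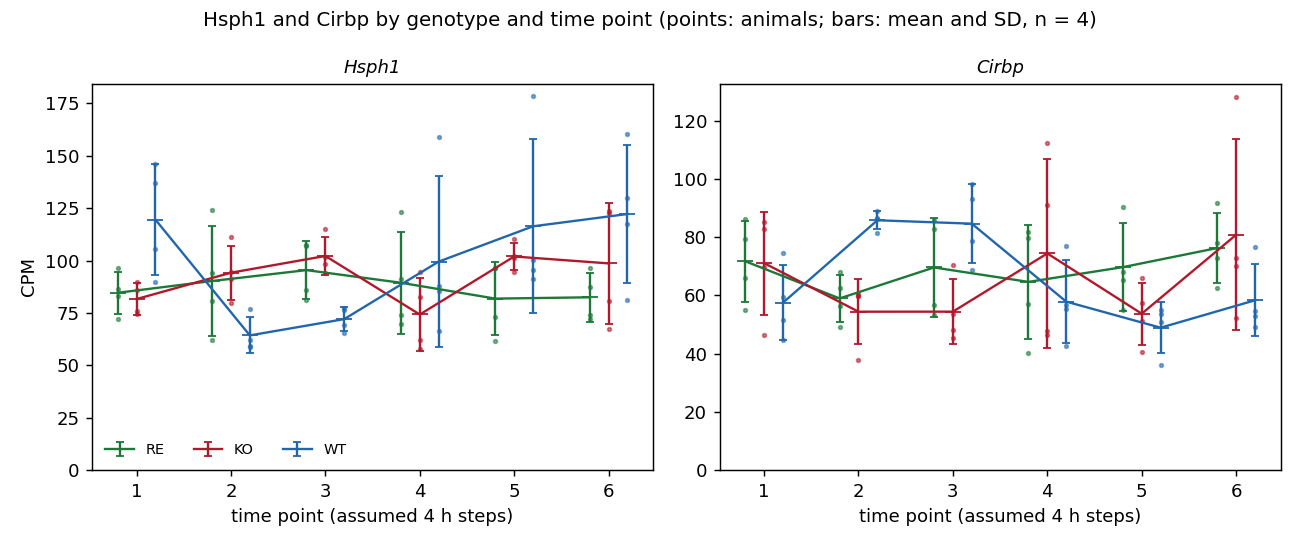
CPM of Hsph1 (left) and Cirbp (right) at time points 1 to 6 in RE, KO and WT, with points for animals and bars for mean and SD (n = 4). In WT, Hsph1 is lowest and Cirbp highest at time points 2 and 3, while RE and KO means stay between 74.3 and 102 CPM for Hsph1 and between 53.8 and 80.8 CPM for Cirbp.

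A rhythm difference between KO and WT was called for 1 of the 10 genes, Cirbp, against 6.21% of all genes tested, and between RE and WT for 1 of 10, Hsph1, against 2.17%. Both comparisons use the same WT animals. Without time point 2 the adjusted p was 0.354 for Cirbp between KO and WT and 0.249 for Hsph1 between RE and WT, and without time point 3 it was 0.195 and 0.161. The Cirbp difference was also lost without time point 6 (0.0739) and held without time point 5 (0.0200), while that of Hsph1 was lost without time point 5 (0.0757). Between RE and KO, edgeR called 0 of the 10 genes and 0% of all genes tested, with unadjusted p under 0.05 for 2 of the 10 and for 364 genes in all. DESeq2 and limma-voom also called 0 genes. The Cirbp call between KO and WT was lost when any of 4 animals was left out: replicate 1 of KO at time point 6 (adjusted p = 0.0880), replicate 4 of KO at time point 2 (0.0560), replicate 2 of WT at time point 3 (0.0535) or replicate 4 of KO at time point 3 (0.0514). Leaving out the lowest library of each genotype on the first principal component kept the WT rhythms of Hsph1 (adjusted p = 0.00336) and Cirbp (0.0187) and the differences of Cirbp between KO and WT (0.0281) and of Hsph1 between RE and WT (0.0392). With time point as a factor in place of the cosine, the adjusted p of the differences was 0.0538 for Cirbp between KO and WT, 0.0378 for Hsph1 between KO and WT and 0.0677 for Hsph1 between RE and WT.

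Among the other HSP70 genes, edgeR called no rhythm. Hspa8, the constitutive HSP70, had 48.1, 48.4, 54.4 and 54.5 CPM in WT at time point 2, low against 61.2, 64.0, 65.9 and 78.3 CPM at time point 5. Its WT swing was 0.30 ± 0.09 with a peak at 15.3 h (adjusted p = 0.0728). This passed in DESeq2 (adjusted p = 0.0488) and in edgeR without time point 4 (0.0334) or 6 (0.0417). The edgeR value rose to 0.715 without time point 2, 0.238 without time point 5 and 0.115 without time point 1. With time point as a factor it was 0.117. The swing was 0.20 ± 0.09 in RE and 0.11 ± 0.09 in KO. Hspa1a, the stress-inducible HSP70, had a swing of 0.58 ± 0.16 in RE (peak 12.1 h, adjusted p = 0.0703, and 0.0479 in DESeq2), 0.50 ± 0.16 in KO (peak 16.5 h, adjusted p = 0.0919) and 0.24 ± 0.16 in WT (adjusted p = 0.557). Hspa1b gave 0.47 ± 0.15, 0.40 ± 0.15 and 0.22 ± 0.15 in the same order, with adjusted p of 0.156, 0.179 and 0.588.

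Of the HSP90 genes, Hsp90ab1 was the steadiest of the 10 between animals. Its standard deviation within a genotype and time point was 0.10 on the log2 scale, at the 8.1 percentile of all genes tested, and its swing was 0.15 ± 0.07 in RE, 0.08 ± 0.07 in KO and 0.04 ± 0.07 in WT. Hsp90aa1, the inducible HSP90, ran from 166 to 343 CPM in RE, 163 to 353 CPM in KO and 177 to 374 CPM in WT, and had swings of 0.21 ± 0.15 in RE, 0.28 ± 0.15 in KO and 0.33 ± 0.15 in WT, and none was called. Rbm3 ran from 28.2 to 56.1 CPM in RE, 27.4 to 57.8 CPM in KO and 31.6 to 56.4 CPM in WT, so its genotypes overlapped. Its swing was 0.27 ± 0.13 in RE, 0.34 ± 0.13 in KO and 0.11 ± 0.13 in WT, with adjusted p of 0.467, 0.199 and 0.840. Rbm3 thus did not share the WT rhythm called for Cirbp, the other cold-induced gene. Rbm3 overlaps the antisense gene Rbm3os, whose counts came to 3.74% of those of Rbm3, and the labels do not say whether strand was used in counting.

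The co-chaperones were the most variable. Bag3, which links HSP70 to autophagy, had in KO 12.5, 19.5, 22.5 and 27.9 CPM at time point 6, below the 34.8, 38.8, 41.1 and 48.6 CPM at time point 2. Its KO swing was 0.80 ± 0.22 with a peak at 6.36 h (adjusted p = 0.0473), beside 0.40 ± 0.21 in RE and 0.44 ± 0.21 in WT. That call is marginal, as it was lost in 27 of the 72 fits without 1 library, with an adjusted p of up to 0.129 without replicate 4 of KO at time point 3. Without the library that lay lowest on the first principal component in each genotype it was 0.0752. The part of the mitochondrial share in the time point 6 values was not tested.

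Dnajb1, the HSP40 that recruits HSP70, had the widest spread, 0.44 within a genotype and time point (72.1 percentile). At time point 6 the RE animals had 205, 309, 550.3 and 740.5 CPM, the KO animals 345, 354, 462 and 467 CPM and the WT animals 303, 558, 840 and 1090 CPM. The lowest of these in RE and in WT were the libraries lowest on the first principal component. In WT its course did not follow a 24 h cosine (swing 0.37 ± 0.26, adjusted p = 0.623): the animals of time point 3, at 608, 636, 669 and 750 CPM, lay above those of time point 4, at 330, 351, 424 and 441 CPM. With time point as a factor instead of a cosine, the WT differences of Dnajb1 passed at an adjusted p of 0.0471.

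**Figure D2:**
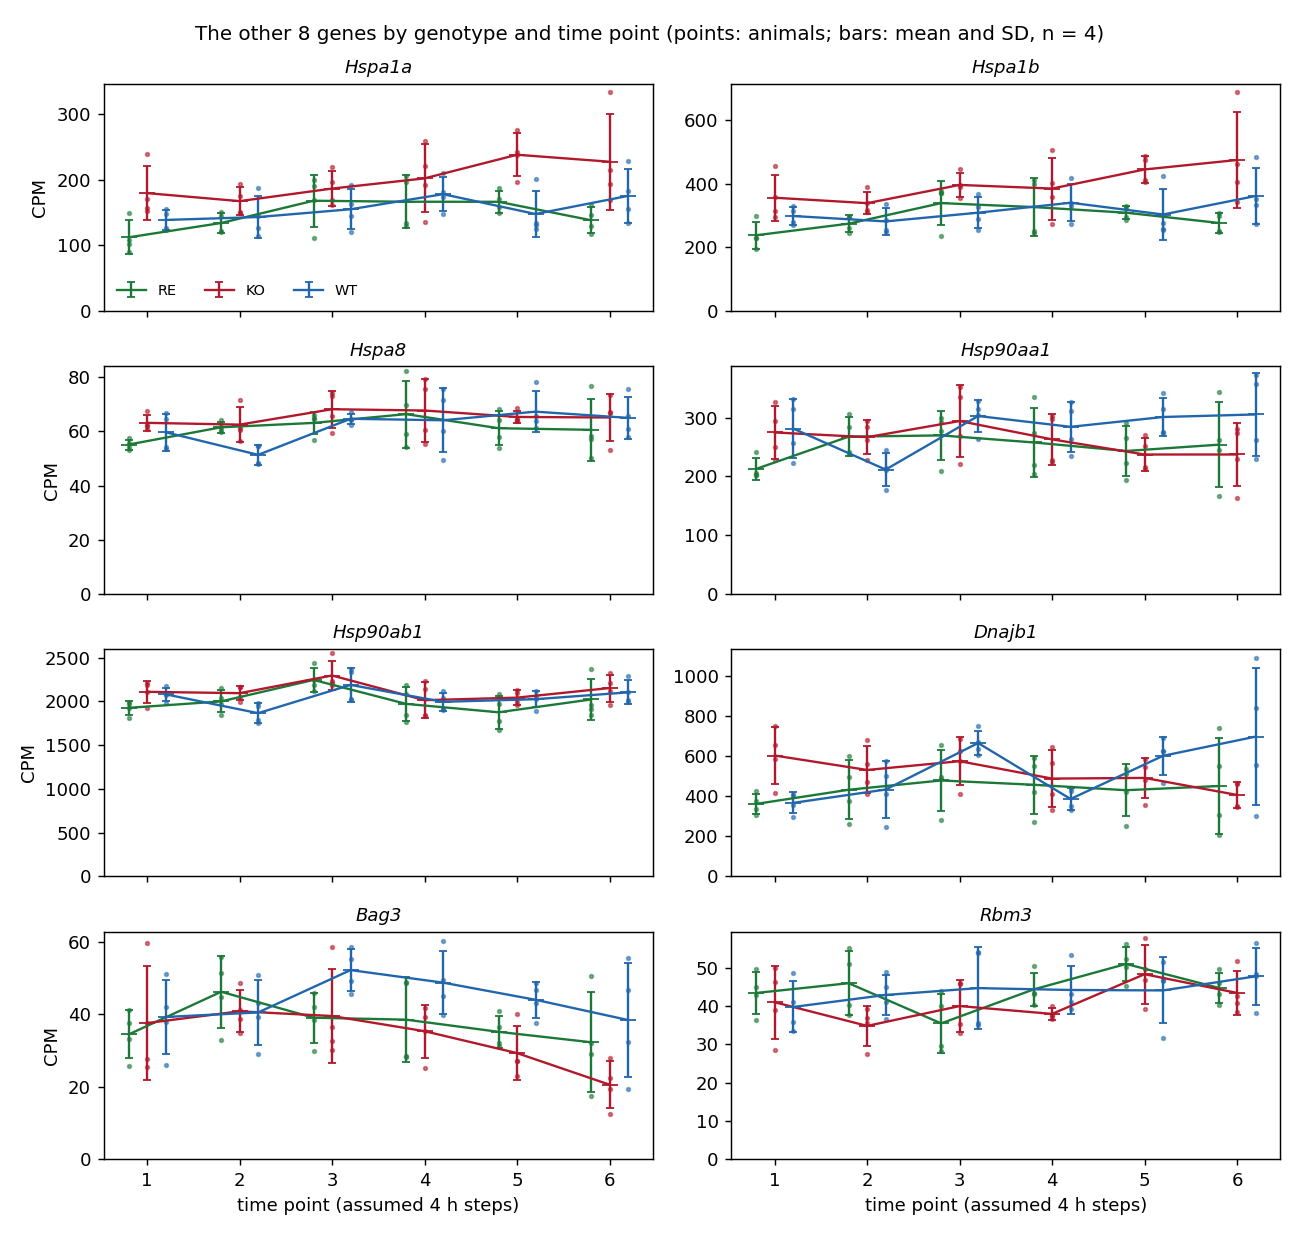
CPM of the other 8 genes at time points 1 to 6 in RE, KO and WT, with points for animals and bars for mean and SD (n = 4), each axis from 0. Hspa1a and Hspa1b means are higher in KO than in RE and WT at every time point, and Bag3 in KO is lowest at time point 6.

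Mean levels over the cycle differed for the inducible HSP70 pair and Bag3 in KO. A different mean level was called for 3 of 10 genes between KO and WT, against 28.2% of all genes tested, for 0 of 10 between RE and WT, against 4.03%, and for 2 of 10 between RE and KO, against 22.5%. These shares are near those of all genes. Between RE and WT, 3 of the 10 had an unadjusted p under 0.05 in edgeR, namely Hsp90aa1 at -0.16 (log2), Dnajb1 at -0.27 and Bag3 at -0.22, and DESeq2 and limma-voom called 0. Hsph1 and Cirbp, whose rhythm differed, had mean levels that were not called in any comparison. The median log2 difference of the 10 was -0.10 between RE and WT, beside 0.01 for all genes.

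Hspa1a had a lowest, median and highest level of 90.2, 148 and 206 CPM in RE, 136, 193 and 334 CPM in KO and 113, 148 and 229 CPM in WT (24 animals each). The ranges overlapped, but 23 of 24 KO animals lay above the WT median and 3 of 24 RE animals lay above the KO median. The KO mean was higher than the WT mean at all 6 time points. The difference was 0.35 ± 0.08 on the log2 scale between KO and WT (1.27-fold, adjusted p = 0.000398) and -0.44 ± 0.08 between RE and KO (adjusted p = 1.58e-05). Between RE and WT it was -0.09 ± 0.08 (adjusted p = 0.583).

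Hspa1b had 195, 296 and 412 CPM in RE, 274, 392 and 691 CPM in KO and 248, 301 and 485 CPM in WT. It differed by 0.33 ± 0.07 between KO and WT (adjusted p = 0.000331), with 22 of 24 KO animals above the WT median, and by -0.44 ± 0.07 between RE and KO (adjusted p = 5.26e-06). Replicate 4 of KO at time point 6 held the highest value of both genes. Leaving out the lowest library on the first principal component of each genotype gave 0.34 for Hspa1a and 0.32 for Hspa1b between KO and WT. Between RE and KO it gave -0.40 for both.

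Bag3 had 17.5, 37.0 and 55.8 CPM in RE, 12.5, 33.8 and 59.7 CPM in KO and 19.4, 45.4 and 60.3 CPM in WT. It fell in KO by 0.39 ± 0.11 on the log2 scale relative to WT (adjusted p = 0.00367), with 3 of 24 KO animals above the WT median. Between RE and WT the difference was -0.22 ± 0.11 (adjusted p = 0.276). Without time point 3 the KO difference was -0.33 (adjusted p = 0.0538). Without the lowest library of each genotype on the first principal component it was -0.39 (adjusted p = 0.000819).

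Markers of suprabasal keratinocytes moved with the same comparison. Krt1, Krt10, Lor and Krtdap, the 4 of 5 markers tested, were all higher in KO than in WT, with a median log2 difference of 0.44. Their summed level, with Flg, ran from 14270 to 21632 CPM in RE, 11869 to 49056 CPM in KO and 10696 to 33592 CPM in WT. Flg had no count in RE, but it did not pass the filter on low counts over all libraries and was not compared between genotypes. Of the 4, Krt10 and Krtdap were lower in RE than in KO. In that comparison, where 22.5% of all genes were called, 3 of 5 dendritic epidermal T cell markers (Cd3e, Cd3g, Nkg7) were higher in RE. Hair follicle markers were called for 3 of 5 (Sox9, Krt79, Krt75), 1 higher and 2 lower in RE, and the erythrocyte marker Hba-a1 was lower. Erythrocyte markers were higher in KO than in WT for 3 of 5. Melanocyte markers (Dct, Tyrp1, Tyr) were lower in KO than in WT for 3 of 5, those of dendritic epidermal T cells (Cd3e, Nkg7) for 2 of 5, and of the basal keratinocyte markers Itga6 was lower, 1 of 5. With 28.2% of all genes called in this comparison, counts of 1 or 2 of 5 are near the share over all genes. The part of these in the levels of Hspa1a, Hspa1b and Bag3 was not tested.

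**Figure D3:**
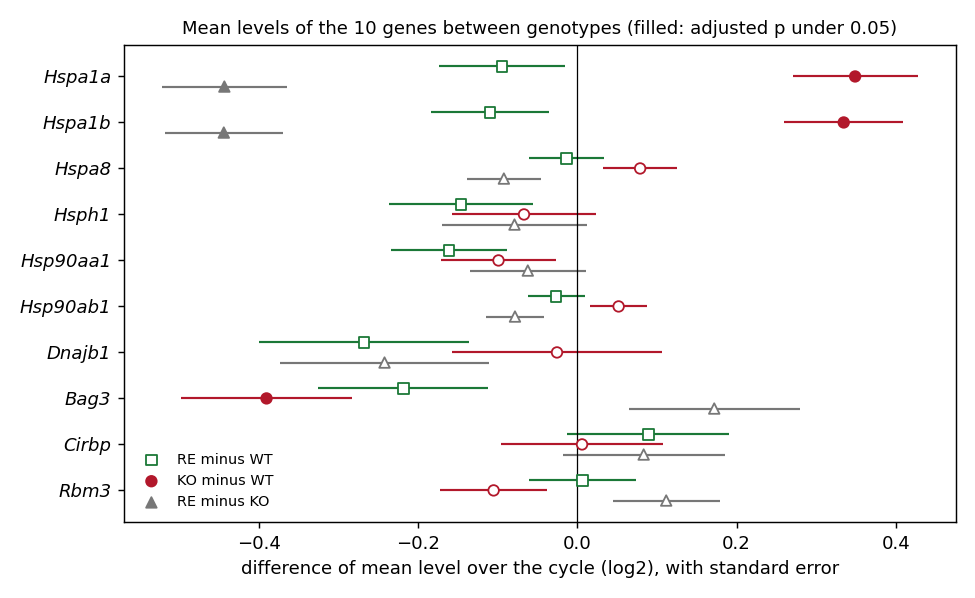
Differences of the mean level over the cycle (log2, with standard error) for the 10 genes, RE minus WT, KO minus WT and RE minus KO, with filled symbols for an adjusted p under 0.05. Hspa1a and Hspa1b lie at 0.35 and 0.33 for KO minus WT and at -0.44 for RE minus KO, and Bag3 lies at -0.39 for KO minus WT.

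Animals of the same genotype and time point also differed from each other in a shared way. With the 18 group means removed, 30 of the 45 pairs of genes were correlated over the 72 libraries (permutation test within groups, adjusted over 45 pairs), 21 positively and 9 negatively. The share of correlated pairs among all genes was not computed. Whether this count is particular to these genes therefore cannot be told. Over all libraries, Cirbp took part in 8 of the 9 negative pairs, which joined it to each of the 8 heat shock genes. The strongest was that with Hsph1 (Pearson r = -0.76, Spearman rho = -0.77, permutation p = 1e-05, the smallest 100000 permutations can give, adjusted p = 5e-05). It was -0.75 without the 2 libraries farthest from the Hsph1 median, and -0.75 in RE, -0.80 in KO and -0.86 in WT. The relation of Hsph1 and Cirbp between animals was thus present in all 3 genotypes. That of Cirbp with some other genes was weak in WT alone, with r of -0.18 for Hsp90ab1, -0.15 for Dnajb1 and -0.20 for Bag3. Within single genotypes, 4 negative pairs were called in RE, 3 in KO and 6 in WT.

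The heat shock genes were mostly positively related. The closest besides the Hspa1a and Hspa1b pair were among Dnajb1, Bag3, Hsp90aa1 and Hspa8, with r of 0.82 (rho 0.81) for Hspa8 and Hsp90aa1, 0.81 (rho 0.77) for Hsp90aa1 and Bag3 and 0.77 (rho 0.74) for Dnajb1 and Bag3 (adjusted p = 5e-05 each). Hsp90ab1 had r between 0.50 and 0.56 with these 4. Hspa8 was also related to Hsph1 (r = 0.52, adjusted p = 0.00114), Hspa1b (0.46) and Hspa1a (0.44), so over all libraries the relations did not divide the genes into separate sets. The genotypes were not alike in this. Hspa8 had r of 0.66 in RE, 0.09 in KO and 0.62 in WT with Hspa1b, and 0.63, 0.11 and 0.61 with Hspa1a. Hspa1b had r of 0.57 in RE, -0.32 in KO and 0.27 in WT with Hsp90aa1, and 0.58, -0.40 and -0.16 with Bag3. Differences of r between genotypes were not tested. Hsph1 followed Hspa1b (r = 0.60, adjusted p = 8.18e-05) and Hspa1a (r = 0.51, adjusted p = 0.000193) while with Dnajb1 its r was 0.02 (adjusted p = 0.919). Hspa1a and Hspa1b had r = 0.96, which reads shared between the copies can also give. Cirbp and Rbm3 had r = 0.07 (adjusted p = 0.680). The 9th negative pair was Hsp90ab1 and Rbm3 (r = -0.46).

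**Figure D4:**
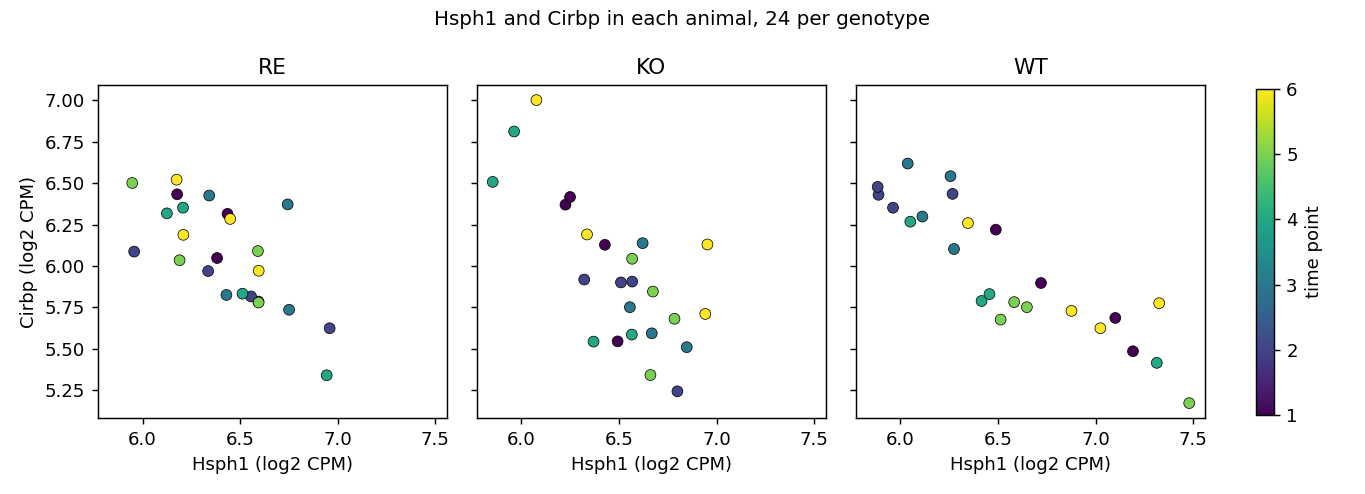
Cirbp against Hsph1 (log2 CPM) in each animal of RE, KO and WT, 24 per panel, coloured by time point. Animals with more Hsph1 have less Cirbp in each panel, with r of -0.75, -0.80 and -0.86 once group means are removed.

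Summed levels of immediate early genes and of cell type markers were correlated with some of these genes. Neither tissue handling nor cell make-up was itself measured per library. The summed level of 13 immediate early genes, which dissociation is known to raise, ran from 11307 to 29877 CPM in RE, 15099 to 29068 CPM in KO and 13971 to 35108 CPM in WT. With group means removed its r was 0.90 with Dnajb1, 0.72 with Hsp90aa1, 0.71 with Bag3 and 0.55 with Hspa8 (adjusted p = 8.57e-05 each over 60 relations). With Hsph1 it was -0.12 (adjusted p = 0.460) and with Cirbp -0.18 (adjusted p = 0.229). The summed suprabasal markers had r = 0.56 with Hspa1a (rho 0.46, adjusted p = 0.00025) and 0.60 with Hspa1b (rho 0.48, adjusted p = 0.000218). The summed basal markers had r = 0.54 with Bag3 (rho 0.46, adjusted p = 0.000218), 0.48 with Hsp90aa1 (rho 0.33, adjusted p = 0.00686), 0.38 with Hspa8 (adjusted p = 0.0280) and 0.37 with Dnajb1 (adjusted p = 0.00264). Without the 2 libraries farthest from the median of the sum, the suprabasal r was 0.47 with Hspa1a and 0.50 with Hspa1b. The basal r was then 0.49 with Bag3, 0.38 with Hsp90aa1, 0.31 with Hspa8 and 0.38 with Dnajb1. The part of handling and of cell make-up in the covariation was not tested.

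**Figure D5:**
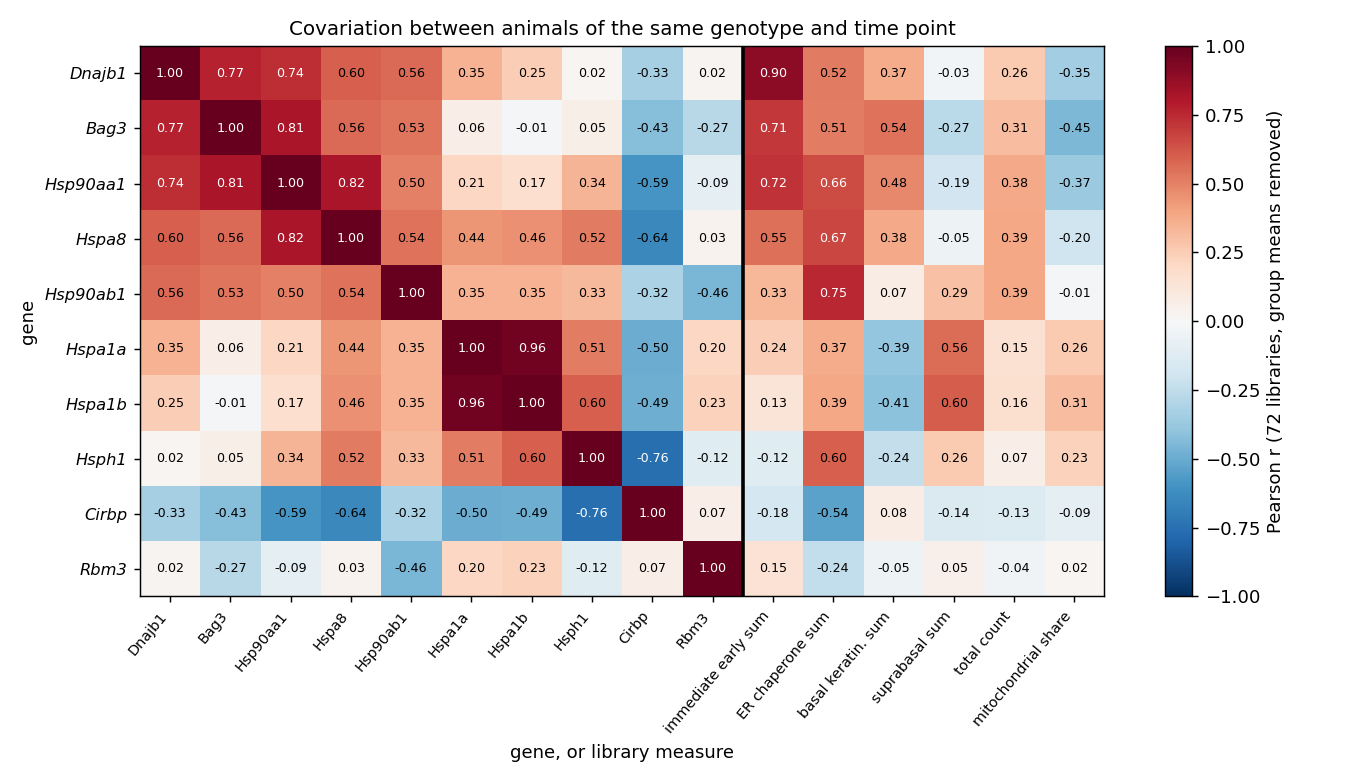
Pearson r over 72 libraries with the 18 group means removed, between the 10 genes (left of the line) and between each gene and 6 library measures (right of it). Dnajb1 has r = 0.90 with the immediate early sum, and Cirbp is negative with all 8 heat shock genes.

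Other chaperone genes were read from lists of pathway members. Of 15 endoplasmic reticulum chaperones, 0 were rhythmic in RE, 0 in KO and 10 in WT, beside 2.7%, 5.87% and 11% of all genes. Their median swings were 0.19, 0.12 and 0.54. An unadjusted p under 0.05 was found for 2 in RE and 1 in KO, DESeq2 called 1 in RE and 0 in KO, and limma-voom called 0 in both. Hsp90b1 had a WT swing of 0.75 ± 0.12 with a peak at 20.5 h, Hyou1 one of 0.82 ± 0.14 at 19.0 h and Calr one of 0.70 ± 0.13 at 20.4 h. The rhythm differed from WT for 7 of 15 in RE and 6 of 15 in KO, beside 2.17% and 6.21% of all genes. With group means removed, their summed level was positively related to all 8 heat shock genes, with r of 0.75 for Hsp90ab1, 0.67 for Hspa8, 0.66 for Hsp90aa1, 0.60 for Hsph1 and 0.37 to 0.52 for the other 4, and had r = -0.54 with Cirbp.

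Of 20 HSP70 partners tested, 1 was rhythmic in RE, 3 in KO and 6 in WT, beside 2.7%, 5.87% and 11% of all genes. Stub1, a ubiquitin ligase that binds HSP70, swung by 0.42 in RE (peak 14.9 h), 0.40 in KO (16.2 h) and 0.17 in WT, and its rhythm differed from WT in both. Bag4 swung by 0.45 ± 0.10 in WT with a peak at 9.72 h, and Dnajc7 by 0.27 in KO. Of 12 HSP90 partners, 1 was rhythmic in RE, 1 in KO and 3 in WT, beside the same shares of all genes. Stip1, which joins HSP70 to HSP90, swung by 0.18 in RE, 0.06 in KO and 0.56 ± 0.11 in WT, peaking at 18.7 h like Hsph1, and its rhythm differed between RE and WT (adjusted p = 0.0128) and between KO and WT (adjusted p = 0.0286). Fkbp5, a glucocorticoid-induced immunophilin, swung by 1.90 in RE, 0.68 in KO and 2.38 ± 0.51 in WT, and Ppid was rhythmic in RE and KO. The mean level of Fkbp5 differed by -0.85 ± 0.25 (log2) between KO and WT and by 0.78 ± 0.25 between RE and KO. Mean levels of 1 of 20 HSP70 partners (Stub1) and 3 of 12 HSP90 partners differed between KO and WT, beside 28.2% of all genes. Those of 3 of 20 HSP70 partners (Dnaja1, Dnaja4, Dnajb5) were lower in RE than in KO, where 22.5% of all genes were called. These counts of level calls are near or below the shares over all genes.

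Of 10 temperature-linked RNA regulators, 3 were rhythmic in RE, the same 3 in KO, and 1 in WT, beside 2.7%, 5.87% and 11% of all genes. The rhythm differed from WT for 1 of 10 in RE and 2 of 10 in KO, beside 2.17% and 6.21% of all genes. U2af1l4 swung by 0.34 in RE, 0.37 in KO and 0.14 in WT, and Srsf5 by 0.45, 0.39 and 0.10, with peaks between 15.8 and 17.99 h in RE and KO. Srsf2 swung by 0.39 in RE, 0.39 in KO and 0.14 in WT, and Clk4 was the gene called in WT. The rhythm of Srsf5 differed from WT in RE (adjusted p = 0.0341) and in KO (adjusted p = 0.0402), and that of U2af1l4 differed in KO (adjusted p = 0.0367).

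Among heat shock factors, Hsf1 swung by 0.24 ± 0.07 in WT with a peak at 17.5 h (adjusted p = 0.0354), and 0.22 in RE and 0.18 in KO were not called, while Hsf2 was 0.12 ± 0.05 higher in KO than in WT. Of 5 small heat shock proteins tested, 0 were rhythmic in edgeR in any genotype, with 1 at an unadjusted p under 0.05 in each, and DESeq2 and limma-voom called 0. Their mean levels differed for 1 of 5 between KO and WT, 1 between RE and WT and 2 between RE and KO. The shares over all genes were 28.2%, 4.03% and 22.5% in the same order. Hspb1 differed by -0.39 ± 0.07 (log2) between RE and KO and by 0.19 ± 0.07 between KO and WT, Hspb8 by -0.27 between RE and WT, and Hspb6 by 0.24 between RE and KO. Over the 9 tests, edgeR called 0 of 8 cytosolic chaperonin genes, 0 of 6 mitochondrial chaperones and 0 of 13 immediate early genes. Of their 72, 54 and 117 gene tests, 4, 3 and 8 had an unadjusted p under 0.05, DESeq2 called 1, 1 and 0, and limma-voom called 0 in each.

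The genes whose level ran most like that of Hsph1 over the 72 libraries were Stip1 (Pearson r = 0.88), Dnajc3 (0.85), St13 (0.83), Cacybp (0.82) and Papola (0.81). Those most like Cirbp were Cep83os (0.79), 2410022M11Rik (0.78), 2810403D21Rik (0.78), Khk (0.77) and Amdhd2 (0.76). These values include the genotype and time differences that the libraries share and carry no test.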

How the data were processed

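Total RNA of 72 epidermis samples was sequenced, and the authors deposited raw read counts per Ensembl mouse gene, 1 table per library. Trimmomatic, TopHat2 2.1.1 and featureCounts with GRCm38 (mm10) were used, per the submitters' processing notes. For the annotation, strand use and multi-mapped reads, settings were not given in the sources used here. Genotype, time point and replicate were read from the labels. All 108 replicate pairs differed beyond sampling noise (chi-square per gene 7.67 to 269).

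Symbols came from GENCODE (GRCm38), matching 45229 of 46078 identifiers. Genes were kept by filterByExpr with 18 groups and a minimum count of 10, and scaled by TMM. The main test was edgeR 4.0.16 (R 4.3.3), quasi-likelihood with robust estimation, on 1 model of all 72 libraries with a mean, a cosine and a sine term of 24 h per genotype. Benjamini-Hochberg adjustment ran over 18538 genes, and calls are at an adjusted p under 0.05. Standard errors came from the model's coefficients. For the level difference between KO and WT, 99.6% of 927 genes checked lay within 20% of edgeR's own statistic. Those of swings and peaks rest on a linear approximation and were not checked. They are rough where a swing is small, since a swing cannot be negative. Log2 CPM used a prior count of 2. Correlations used residuals from group means and 100000 permutations within groups.

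Genes described singly were the 10 genes in every comparison, up to 3 called genes with the smallest adjusted p of each pathway list, and Arntl. The 5 genes most like Hsph1 and Cirbp were also listed. Some other called list genes and cell type markers are named beside their counts. The genes and lists were chosen with earlier results of these data known. Procedures were tested on simulated data. DESeq2 1.42.0, limma-voom (limma 3.58.1), RLE factors, no filter, fewer samples, a replicate block, time point as a factor and summed Hspa1a and Hspa1b were tried as alternatives.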

Additional observations from a re-analysis of the deposited data

Results flagged for a closer look

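A single animal lay far from the other 3 of its genotype and time point in 8 of 180 groups of 4, where chance flags about 1 in 20 groups. Replicate 1 of WT at time point 5 was high for 3 genes, with 178 CPM of Hsph1 (others 91.3 to 100.2), 201.1 CPM of Hspa1a (others 125 to 134) and 424 CPM of Hspa1b (others 254 to 276). Replicate 2 of RE at time point 3 was low, with 236 CPM of Hspa1b (others 371 to 378) and 56.9 CPM of Hspa8 (others 64.8 to 66.1). Replicate 3 of RE at time point 1 had 241 CPM of Hsp90aa1 (others 202 to 205). Replicate 4 of KO at time point 3 had 2553 CPM of Hsp90ab1 (others 2191 to 2229). Replicate 4 of KO at time point 2 had 37.8 CPM of Cirbp (others 59.7 to 60.4).

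The 24 h rhythm differed between genotypes for Cirbp in KO and WT (adjusted p = 0.0296) and for Hsph1 in RE and WT (adjusted p = 0.0178) in edgeR. The Hsph1 value was 0.0378 with replicate 1 of time point 5 in WT left out.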

How the results depend on the processing

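Counts below are of the 10 genes, and no value reversed. In WT, 2 rhythms were called, 1 (Hsph1) without time point 2, 3 or 5, and 3 with DESeq2 or without time point 4 or 6 (Hspa8 added) and with time point as a factor (Dnajb1 added). In KO, 1 was called (Bag3), and 0 with limma-voom, without the filter, with KO alone, with the replicate block (adjusted p = 0.0535), with time point as a factor, without time point 2, 3, 4, 5 or 6, and without the lowest library of each genotype on the first principal component, an alternative chosen after seeing the data. In RE, 0 were called, and 1 (Hspa1a) with DESeq2, with the replicate block or without time point 6. For the KO and WT rhythm difference (1), DESeq2 and the fit without time point 4 gave 2, and no filter and the fits without time point 2 or 3 gave 0. It stayed 1 without time point 6 and with time point as a factor, but Hsph1 was then called (adjusted p = 0.0450 and 0.0378) in place of Cirbp (0.0739 and 0.0538). For RE and WT (1), the 2 genotypes alone and the fit without time point 4 gave 2, and time point as a factor and the fits without time point 2, 3 or 5 gave 0. The RE and KO level count (2) became 1 with Hspa1a and Hspa1b added together, since they are then 1 feature, and 3 with DESeq2 (Hsp90ab1 added, adjusted p = 0.0468) or without time point 3 (Rbm3 added). The KO and WT level count (3) became 2 with the pair added together and without time point 3 (Bag3 lost). Beside the 30 correlated pairs over all libraries, 25 were called in RE alone (18 of the 30), 11 in KO alone (10 of the 30) and 16 in WT alone (all among the 30), with 24 libraries each and the sign of all 30 pairs kept. Without the lowest library of each genotype on the first principal component, 34 pairs were called, among them all 30. The cause of these shifts was not tested. Leaving out 1 library gave 2 to 3 calls in WT, 0 to 2 in KO, 0 to 1 in RE, 0 to 2 for KO and WT, 1 to 2 for RE and WT and 0 for RE and KO rhythms, and 3, 0 and 2 to 3 for the levels of KO and WT, RE and WT, and RE and KO. Same-numbered animals did not deviate together (median r = -0.0147 over 612 pairs, 137 above 0.1), so the numbers are not taken as pairs.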
